A study of Rattus norvegicus with 6 samples.

Results

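The sirtuins are a family of enzymes that remove acyl groups from proteins and consume NAD in doing so. The members were taken by gene name from the deposited expression table of rat donor hearts. Of the 7 listed sirtuins, 6 were found among its 22250 genes: Sirt3, Sirt4 and Sirt5, whose proteins work in mitochondria, and Sirt2, Sirt6 and Sirt7, whose proteins work in the cytosol and the nucleus. Sirt1 was not listed under that name. A gene named AABR07044925.1, which the table describes as sirtuin 1, is given separately and is not counted among the 6.

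RNA-Seq was performed on left ventricular myocardium of Sprague-Dawley rats on day 1 after heterotopic heart transplantation. Young donors were 10 weeks old (animals 3, 13 and 15) and aged donors were 1 year old (animals 3, 4 and 7, where animal 3 is a different rat). All 6 donors were male and carried the genotype label WT, and their hearts had been arrested and kept cold in University of Wisconsin solution before they were placed into young recipients. The donor groups therefore differ in age after the same storage and surgery, no heart without transplantation is included here, and cells of the recipient may be present in any of the samples.

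Because NAD is their co-substrate, sirtuins are regarded as links between the energy state of a cell and the modification of its proteins. Cardiac muscle is rich in mitochondria, and the mitochondrial sirtuins act there on enzymes of fatty acid oxidation, the citrate cycle and the respiratory chain. The nuclear and cytosolic members act on histones, transcription factors, tubulin and proteins of the nucleolus, where ribosomal RNA is made.

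The hearts were sequenced to similar depth, with 21457509 to 24560869 reads counted on genes. Levels are given as CPM, read counts scaled to a common library size with the TMM method (trimmed mean of M values). A sirtuin had between 55 and 3034 reads in a heart, well above the 3 reads taken as the lowest signal (0.0985 to 0.191 CPM). The tissue was described with 13 cardiomyocyte markers, genes of the contractile apparatus, its calcium handling and its energy supply. None of these markers was at 0 in all the hearts, which does not check the tissue label of any single heart. Their mean on the log2 CPM scale was 12.14, 12.26 and 9.70 in young animals 3, 13 and 15, and 3.78, 8.91 and 8.79 in aged animals 3, 4 and 7. Young animal 15 was thus nearer to aged animals 4 and 7 than to the other young hearts, and aged animal 3 was far below all of them, so values are also given below without these hearts. In bulk tissue, fewer cells of a type and less RNA per cell cannot be told apart.

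The region just upstream of a gene holds part of the sequence that controls its transcription. It was searched on both strands, over the 250 bases before the start of each gene, for 6 textbook motifs: the GC box bound by SP1 (GGGCGG), the half-site of estrogen-related receptors (AAGGTCA), the ETS motif (CCGGAAG), the E-box (CACGTG), the cAMP response element (TGACGTCA) and the AP-1 site (TGANTCA). The pieces below are shown because they hold matches in Sirt3, Sirt5 and Sirt7, the sirtuins with the largest differences between the donor groups, and the capitals mark the matched letters. They come from RefSeq on build GRCr8 and read 5′ to 3′ towards the gene.
Sirt3, chr1:205393697-205393726, minus strand: ggGGGCGGgacttggcgagaataGGGCGGt
Sirt5, chr17:21543202-21543231, minus strand: aatggatcttggAAGGTCAcaaagacacat
Sirt7, chr10:106401554-106401583, minus strand: aggaagggcgagCCGGAAGgggtgggaaag
The Sirt3 piece holds the GC boxes that begin 123 and 102 bases before the start of the gene, and a further box begins 82 bases before it. The Sirt5 half-site begins 163 bases before the start, and the Sirt3 window held 0 matches to the half-site. The Sirt7 ETS motif begins 73 bases before the start, and Sirt7 also has a GC box 246 bases before it. No match overlapped another. Among 33469 rat promoter windows of the same length, 30.5% held a GC box, 3.99% the half-site and 7.27% the ETS motif, while 5.59% held the E-box, 1.59% the cAMP response element and 6.34% the AP-1 site. Sirt2 and Sirt4 had none of the 6 motifs in this window, and Sirt6 had no entry. The Sirt1 window held 2 GC boxes, 64 and 54 bases before the start, and 2 E-boxes, 118 and 46 bases before it. A match is a description of letters, and none of these sites was measured here.

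Of the 6 sirtuins, the 3 mitochondrial members were lower in aged donor hearts and Sirt7 was higher. Sirt2 and Sirt6 did not pass the limits that the study set for its RNA-Seq comparison. These are a p under 0.05 together with more than a 1.5-fold rise or a ratio below 0.67. The paper does not state whether its p was adjusted, and the unadjusted p was chosen here. The limits were applied to edgeR's quasi-likelihood test over all 13784 genes tested, of which 13.2% were past them as higher and 19.0% as lower, so calls were common throughout these hearts. After Benjamini-Hochberg adjustment over all genes tested, 0 genes had an adjusted p under 0.05 in edgeR, against 4731 with an unadjusted p under 0.05. The smallest adjusted p was 0.0916, and it was that of Sirt5 and Sirt7, among others. In DESeq2 3541 genes and in limma-voom 8416 genes had an adjusted p under 0.05. For single genes, the smallest p that an exact two-sided permutation test can give with 3 hearts against 3 is 0.1.

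**Figure D1:**
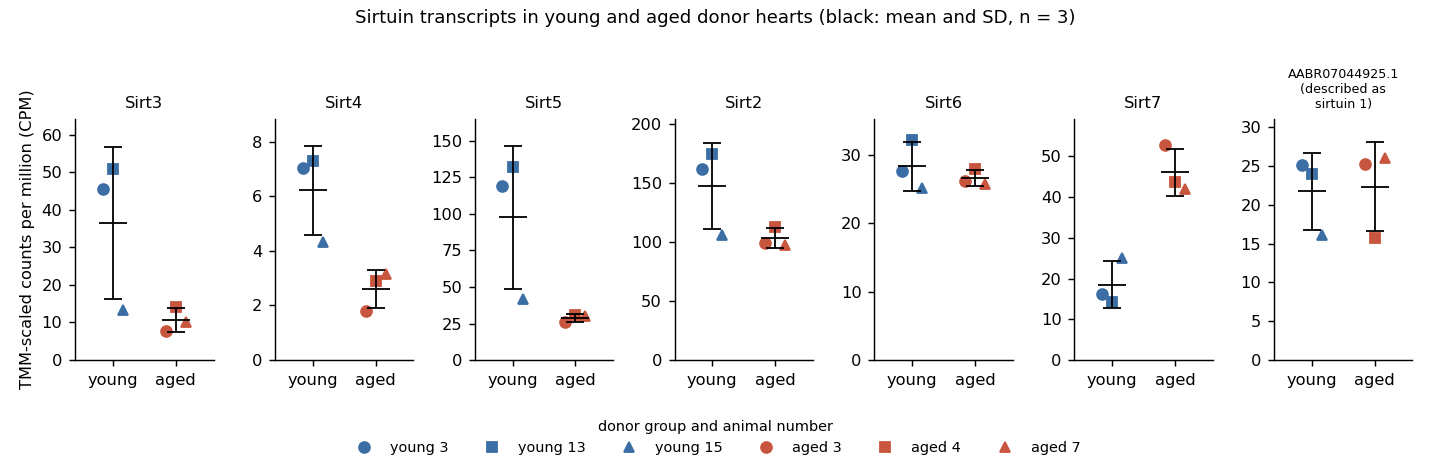
TMM-scaled CPM (y axis, each panel from 0 on its own linear scale) of the 6 sirtuins and of AABR07044925.1 in young (blue) and aged (red) donor hearts. Each point is a heart, with the shape giving the animal, and the black bars are the mean and SD of 3 hearts. Sirt4 and Sirt5 were lower and Sirt7 was higher in every aged heart than in every young heart, and young animal 15 was the young heart nearest to the aged hearts for Sirt3, Sirt4, Sirt5 and Sirt7.

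Sirt3 (ENSRNOG00000013828, minus strand of chromosome 1, 213613513 to 213635546 in build Rnor_6.0) encodes the main deacetylase of the mitochondrial matrix. It had 754, 798 and 325 reads in young animals 3, 13 and 15, which is 45.6, 50.7 and 13.4 CPM. In aged animals 3, 4 and 7 it had 234, 373 and 263 reads, which is 7.69, 14.1 and 10.1 CPM. The groups overlapped, since young animal 15 was below aged animal 4. The mean was 36.6 ± 20.2 CPM (SD, n = 3) in young and 10.6 ± 3.26 CPM (SD, n = 3) in aged donor hearts, a 3.44-fold lower level. The log2 fold change was -1.78 (SE 0.527, edgeR p = 0.0135, adjusted p = 0.094), and the exact permutation p was 0.2.

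Sirt5 (ENSRNOG00000017866, plus strand of chromosome 17, 23986758 to 24013881) encodes the mitochondrial enzyme that removes succinyl, malonyl and glutaryl groups from lysine. Its reads numbered 1971, 2073 and 1014 in young animals 3, 13 and 15 and 793, 813 and 779 in aged animals 3, 4 and 7. This corresponds to 119, 132 and 41.9 CPM in the young and 26.0, 30.8 and 29.9 CPM in the aged hearts. Every aged heart was below every young heart, which was the case for 20.6% of all genes tested. The aged hearts lay close together at 28.9 ± 2.52 CPM (SD, n = 3), whereas the young hearts varied widely at 97.6 ± 48.7 CPM (SD, n = 3). Sirt5 was 3.38-fold lower in aged donor hearts, with a log2 fold change of -1.76 (SE 0.429, edgeR p = 0.00559, adjusted p = 0.0916) and an exact permutation p of 0.1.

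Sirt4 (ENSRNOG00000001151, plus strand of chromosome 12, 46868416 to 46876592) encodes a mitochondrial enzyme known for restraining glutamate dehydrogenase and pyruvate dehydrogenase. It was the least abundant sirtuin, with 116, 115 and 105 reads in young animals 3, 13 and 15 and 55, 76 and 82 reads in aged animals 3, 4 and 7. These reads are 7.02, 7.31 and 4.34 CPM in the young and 1.81, 2.88 and 3.14 CPM in the aged hearts, again without overlap. Its mean of 6.22 ± 1.64 CPM (SD, n = 3) in young donor hearts was 2.38-fold that in aged donor hearts, 2.61 ± 0.708 CPM (SD, n = 3). The log2 fold change was -1.25 (SE 0.355, edgeR p = 0.0112, adjusted p = 0.0924), and the exact permutation p was 0.1.

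Sirt7 (ENSRNOG00000036683, minus strand of chromosome 10, 109796020 to 109802739) encodes a nucleolar and nuclear sirtuin that acts on histones and on ribosomal RNA transcription. It was the only sirtuin called higher in aged donor hearts. Its reads numbered 269, 225 and 606 in young animals 3, 13 and 15 and 1605, 1154 and 1097 in aged animals 3, 4 and 7. The levels were 16.3, 14.3 and 25.0 CPM in the young and 52.7, 43.7 and 42.0 CPM in the aged hearts. The lowest aged heart was above the highest young heart, which held for 21.0% of all genes tested. The mean of 46.2 ± 5.73 CPM (SD, n = 3) in aged donor hearts was 2.49-fold that in young donor hearts, 18.5 ± 5.71 CPM (SD, n = 3), and the difference exceeded the spread within either group. The log2 fold change was 1.31 (SE 0.258, edgeR p = 0.00184, adjusted p = 0.0916), with an exact permutation p of 0.1.

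Sirt2 (ENSRNOG00000020102, plus strand of chromosome 1, 86948918 to 86971952) encodes the mainly cytosolic sirtuin that deacetylates tubulin. Its raw reads hardly differed, with 2672, 2751 and 2556 in young animals 3, 13 and 15 and 3034, 2971 and 2548 in aged animals 3, 4 and 7. After scaling the levels were 162, 175 and 106 CPM in the young and 99.6, 113 and 97.6 CPM in the aged hearts, with overlap at young animal 15. The means were 147 ± 36.8 and 103 ± 8.14 CPM (SD, n = 3 each). Its log2 fold change was -0.51 (SE 0.24, edgeR p = 0.0737, adjusted p = 0.177), which did not pass the limits, and the exact permutation p was 0.2. With library totals alone its log2 fold change was -0.01, or -0.47 relative to the median of all genes under that scaling, against -0.53 with TMM.

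Sirt6 (ENSRNOG00000006393, plus strand of chromosome 7, 10937599 to 10943063) encodes a chromatin-bound sirtuin with roles in DNA repair and the control of glycolytic genes. Its level was 27.6, 32.2 and 25.2 CPM in young animals 3, 13 and 15 and 26.2, 28.0 and 25.7 CPM in aged animals 3, 4 and 7. The reads behind these levels were 457, 507 and 609 in the young and 798, 739 and 670 in the aged hearts. The groups overlapped, with 28.3 ± 3.59 CPM in young and 26.6 ± 1.23 CPM in aged donor hearts (SD, n = 3 each). With an adjusted p of 0.717, the log2 fold change of -0.09 (SE 0.169) was smaller than its standard error, and its sign turned with the cardiomyocyte covariate described below (0.02). With library totals alone it was 0.38 and with totals without the mitochondrial genome 0.21. Relative to the median of all genes, which these scalings also moved, it was -0.08 in both, against -0.11 with TMM. A change of scale moves all genes by nearly the same amount, so this likeness was given in advance and does not settle the sign. On the deposited FPKM, which are scaled by library totals, Sirt6 was at 12.8 to 16.4 in young and 17.9 to 19.5 in aged donor hearts.

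AABR07044925.1 (ENSRNOG00000051592, minus strand of chromosome 20, 26833357 to 26852199), described in the table as sirtuin 1, a nuclear deacetylase of FOXO factors, also overlapped between the groups. Its levels were 25.2, 24.0 and 16.1 CPM in young animals 3, 13 and 15 and 25.3, 15.7 and 26.0 CPM in aged animals 3, 4 and 7. Its log2 fold change was 0.04 (SE 0.286, adjusted p = 0.933), a value whose sign turned when single hearts were left out.

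The called sirtuins kept their direction and stayed past the limits without either of the hearts that stood apart. Without young animal 15 the log2 fold changes were -2.14 for Sirt3, -1.42 for Sirt4, -2.08 for Sirt5 and 1.63 for Sirt7, and Sirt2 also passed the limits at -0.67 (SE 0.15). Calls were then more frequent among all genes, at 26.9% higher and 24.2% lower of 14109 tested. Without aged animal 3 the values were -1.59 for Sirt3, -1.04 for Sirt4, -1.68 for Sirt5 and 1.21 for Sirt7. Scaling by library totals alone moved the median log2 fold change of all genes from 0.02 to 0.46. The log2 fold changes were then -1.22 for Sirt3, -0.76 for Sirt4, -1.20 for Sirt5 and 1.70 for Sirt7. Relative to that median, the values were -1.68 for Sirt3, -1.21 for Sirt4, -1.66 for Sirt5, -0.47 for Sirt2, -0.08 for Sirt6 and 1.25 for Sirt7. These are near the TMM values by construction, since a change of scale moves all genes by nearly the same amount.

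Markers of some cell types also differed between the donor groups, beside 13.2% of all genes called higher and 19.0% lower. All 13 cardiomyocyte markers were tested, 0 were higher and 5 lower past the limits, their median log2 fold change was -3.24, and their summed level was 15900 to 119000 CPM in young and 641 to 10200 CPM in aged donor hearts. Myh6, the fast cardiac myosin heavy chain, averaged 19300 ± 15900 CPM in young and 284 ± 253 CPM in aged donor hearts (SD, n = 3 each). It had the largest difference of these markers. Myh7, the other myosin heavy chain of the list, had a log2 fold change of -0.25 (SE 1.33). It was at 868, 830 and 1040 CPM in young animals 3, 13 and 15 and 10.6, 451 and 1840 CPM in aged animals 3, 4 and 7. Of 12 neutrophil markers 9 were tested and all 9 were higher, with a summed level of 16.9 to 143 CPM in young and 370 to 1340 CPM in aged donor hearts. Of 10 macrophage markers 9 were tested and 3 were higher, with sums of 278 to 2430 against 3850 to 7470 CPM. T cell markers, of which 2 of 6 tested were higher, summed to 29.4 to 80.7 against 96.3 to 145 CPM. Cd8a took most of the aged sums (99.0, 88.3 and 63.8 CPM in aged animals 3, 4 and 7) without passing the limits. The T cell receptor genes Cd3e (0.53) and Cd3g (-0.37) overlapped between the groups and did not pass them either. Fibroblast markers, of which 2 of 8 tested were lower, summed to 6410 to 8230 against 2380 to 4530 CPM. The lower genes were the collagens Col1a1 and Col3a1, which took most of the sum, and the other 6 were not past the limits. Sums overlapped between the groups for red blood cell markers (1 of 6 tested lower, 729 to 5780 against 246 to 3100 CPM), smooth muscle markers (2 of 7 lower, 595 to 1140 against 420 to 633 CPM) and endothelial markers (1 of 8 lower, 1570 to 2220 against 1530 to 2130 CPM, with Cldn5 at 0 reads in all 6 hearts). The 13 genes of the mitochondrial genome also took fewer reads in aged donor hearts, 6.56% to 10.3% of the total against 11.9% to 21.7% in young donor hearts. The part of this shift in the sirtuin differences was tested only by 1 added term, the cardiomyocyte marker mean of each heart, which itself differed between the groups. In that fit 2.53% of genes were called higher and 3.01% lower. Sirt7 was still past the limits with a log2 fold change of 0.90 (SE 0.297), whereas Sirt3 at -0.72 (SE 0.699), Sirt4 at -0.53 (SE 0.404) and Sirt5 at -1.09 (SE 0.653) were not past them. The value of Sirt5 was larger in size than that of Sirt7 and missed the limits with its larger SE. Aged animal 3 lay far from the other hearts in the added term (3.78 against 8.79 to 12.26), and no immune cell term was added.

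**Figure D2:**
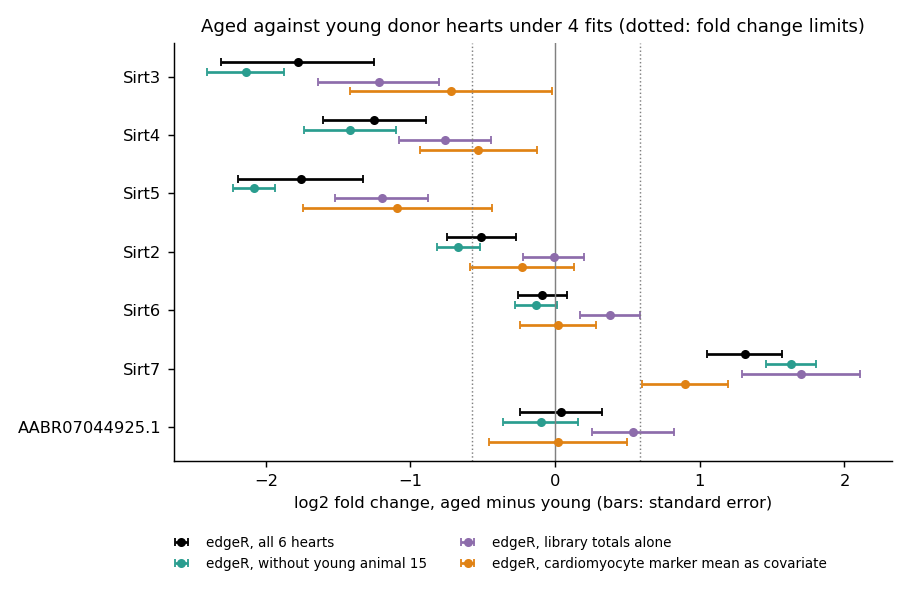
Log2 fold change of each sirtuin, aged minus young donor hearts, in 4 edgeR fits (colours), with bars giving the standard error and dotted lines the fold change limits of 0.67 and 1.5. The mitochondrial sirtuins lay left of 0 and Sirt7 right of 0 in each of these fits, and Sirt3, Sirt4 and Sirt5 were nearer to 0 when the cardiomyocyte marker mean was added.

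**Figure D3:**
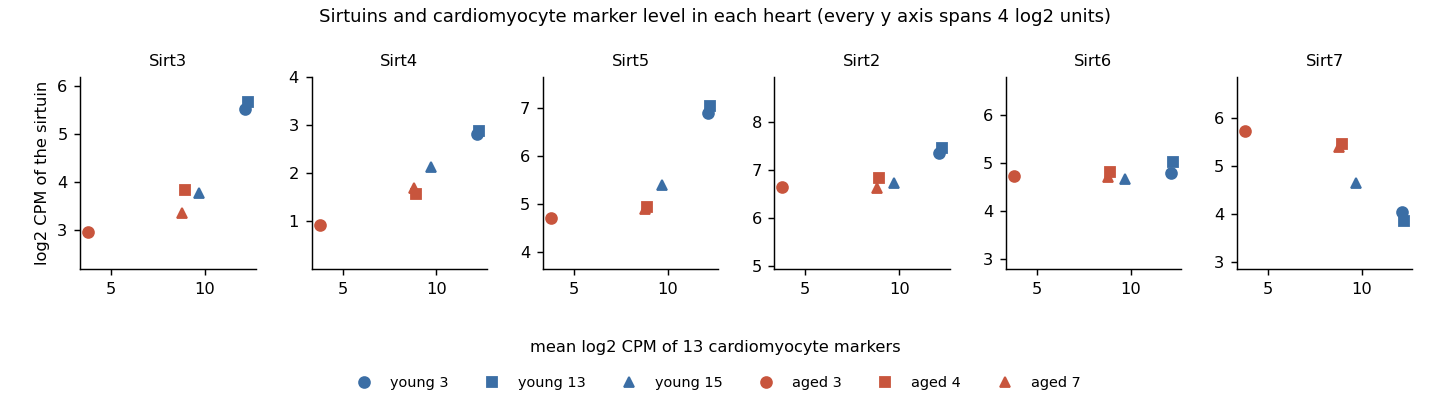
Level of each sirtuin (y axis, log2 CPM, every panel spanning 4 log2 units) against the mean log2 CPM of the 13 cardiomyocyte markers (x axis) in the 3 young (blue) and 3 aged (red) donor hearts. Sirt3, Sirt4 and Sirt5 were highest in the hearts with the highest marker mean (young animals 3 and 13), Sirt7 was lowest in them, and Sirt6 stayed between 4.66 and 5.01 in all 6 hearts.

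Levels of different sirtuins were compared per gene length, by the deposited FPKM (reads per length of gene and library total). In young donor hearts the order was Sirt2 (56.8 ± 3.22 FPKM), Sirt5 (48.6 ± 17.6 FPKM), Sirt3 (20.9 ± 9.03 FPKM), Sirt6 (14.5 ± 1.83 FPKM), Sirt7 (9.62 ± 5.24 FPKM) and Sirt4 (3.05 ± 0.228 FPKM, SD, n = 3 each). Of these neighbours, Sirt2 and Sirt5, Sirt3 and Sirt6, and Sirt6 and Sirt7 had overlapping ranges. In aged donor hearts Sirt2 was again first (56.2 ± 3.39 FPKM), followed by Sirt7 (31.3 ± 5.39 FPKM), Sirt5 (21.1 ± 0.882 FPKM), Sirt6 (18.8 ± 0.839 FPKM), Sirt3 (8.97 ± 2.38 FPKM) and Sirt4 (1.80 ± 0.428 FPKM), with no overlap between neighbours. Sirt7 was thus next to last in the young order and next to Sirt2 in the aged order. The same order was found in each of the 3 aged hearts. Among the young hearts it differed, with Sirt5 above Sirt2 in animal 13, and with Sirt6 and Sirt7 above Sirt3 in animal 15. Between the orders of the group means 4 pairs of sirtuins changed places, and TMM-scaled counts per kilobase changed the same number of pairs.

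The share of a sirtuin within a heart does not depend on how libraries are scaled. The mitochondrial sirtuins made up 52.5%, 53.1% and 32.9% of the summed FPKM of the 6 sirtuins in young animals 3, 13 and 15, and 19.9%, 24.9% and 24.7% in aged animals 3, 4 and 7. The groups did not overlap, although young animal 15 was nearer to the aged hearts. The mean share was 46.2% ± 11.5 in young and 23.1% ± 2.82 in aged donor hearts (SD, n = 3 each). The share of Sirt5 alone was 30.9% ± 7.44 in young and 15.3% ± 1.21 in aged donor hearts. Sirt7 made up 4.41%, 3.55% and 12.3% in the young and 26.3%, 20.1% and 21.5% in the aged hearts. The share of Sirt2 was 37.4% ± 3.91 in young and 40.7% ± 0.863 in aged donor hearts, a difference within the spread of the young hearts. On the log2 CPM scale, the mean of the mitochondrial minus that of the nuclear and cytosolic sirtuins was -0.307, -0.238 and -1.58 in young animals 3, 13 and 15 and -2.83, -2.24 and -2.25 in aged animals 3, 4 and 7. No p is given for these combined values, because the members were chosen with results of these data known.

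**Figure D4:**
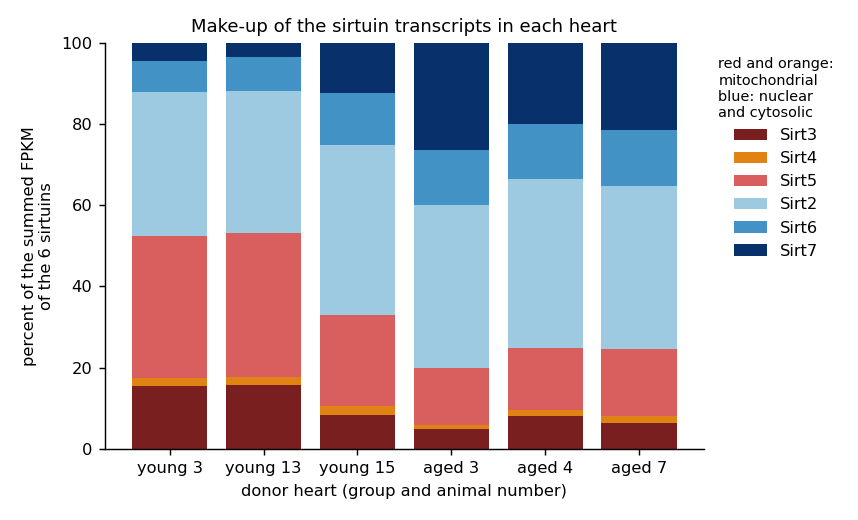
Share of each sirtuin in the summed FPKM of the 6 sirtuins (y axis, percent) in each heart (x axis, group and animal number), with mitochondrial members in red and orange and nuclear and cytosolic members in blue. The mitochondrial members filled 32.9% to 53.1% of the bar in young and 19.9% to 24.9% in aged donor hearts, and Sirt7 filled 3.55% to 12.3% and 20.1% to 26.3%.

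Sirt7 and Sirt5 exchanged their order in reads. There were 0.136, 0.109 and 0.598 reads of Sirt7 for each read of Sirt5 in young animals 3, 13 and 15, and 2.02, 1.42 and 1.41 in aged animals 3, 4 and 7. For each read of Sirt6 there were 0.589, 0.444 and 0.995 reads of Sirt7 in the young and 2.01, 1.56 and 1.64 in the aged hearts, so the shift was also present between the nuclear members. The corresponding values for Sirt2 were 0.101, 0.0818 and 0.237 in the young and 0.529, 0.388 and 0.431 in the aged hearts. In none of these ratios did the groups overlap. Sirt7, which enters all of them, did not overlap by itself either, as held for 21.0% of all genes tested. The ratios are therefore not separate findings, and the share of all gene pairs without overlap was not counted.

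NAD is made and handled by enzymes that set how much co-substrate sirtuins have. Of 23 listed genes of NAD synthesis and handling 18 were tested. Past the limits, 3 were higher and 5 lower, beside 13.2% and 19.0% of all genes. The median log2 fold change was -0.18, against 0.02 for all genes. Nampt, the rate-limiting enzyme of NAD salvage from nicotinamide, did not pass the limits (log2 fold change -0.27, SE 0.292). Nmrk2, the nicotinamide riboside kinase of striated muscle, was at 48.8, 43.7 and 1.28 CPM in young animals 3, 13 and 15 and at 0, 0.872 and 0.0766 CPM in aged animals 3, 4 and 7. All aged hearts were below all young hearts, but young animal 15 had 31 reads against 807 in young animal 3. Its log2 fold change of -6.63 (SE 1.79, adjusted p = 0.0919) turned to 0.23 with the cardiomyocyte covariate. Nnt, the mitochondrial transhydrogenase that turns NADH into NADPH, was at 1560 ± 880 CPM in young and 293 ± 169 CPM in aged donor hearts (SD, n = 3 each, log2 fold change -2.41). Afmid, an enzyme of the route from tryptophan, and Nadk2, the mitochondrial NAD kinase, were lower at -1.71 and -1.32, with overlap between the groups for Nadk2. Higher were Pnp, a purine nucleoside phosphorylase (104 ± 57.2 against 252 ± 63.6 CPM, log2 fold change 1.28), and Nadk, the cytosolic NAD kinase (0.94), and both lost their call without young animal 3 (1.08 and 0.87) and without young animal 13 (1.05 and 0.82). Pnp also lost it without aged animal 3 (1.10) or aged animal 4 (1.27). The call of Nadk2 was likewise lost without young animal 3 (-1.07), young animal 13 (-1.17), aged animal 3 (-1.19) or aged animal 4 (-1.19). Without young animal 3 or 13, 0 genes of this list were called higher, in fits that called 2432 and 2495 of all genes over both directions.

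Of 20 tested genes for other enzymes that consume NAD or nicotinamide, 1 was higher and 3 were lower, beside 13.2% and 19.0% of all genes, with a median log2 fold change of 0.21. Without young animal 15, 5 were higher and 4 lower, beside 26.9% and 24.2% of all genes. In each fit without young animal 3, young animal 13, aged animal 3 or aged animal 7, 1 was lower. Those fits called 2432, 2495, 3115 and 3162 of all genes over both directions. Bst1, a cell surface enzyme that hydrolyses NAD, was at 6.78, 4.39 and 12.9 CPM in young animals 3, 13 and 15 and at 67.0, 31.4 and 36.3 CPM in aged animals 3, 4 and 7 (log2 fold change 2.48, SE 0.497). Bst1 is also found on myeloid cells, and it was the only one of these genes called higher. Parp1, the main poly(ADP-ribose) polymerase of DNA repair, was at 225 ± 70.3 CPM in young and 122 ± 20.3 CPM in aged donor hearts (SD, n = 3 each, log2 fold change -0.89), and this call was lost with library totals alone (-0.37) and without young animal 3 (-0.80), young animal 13 (-0.70), aged animal 3 (-0.90) or aged animal 7 (-0.75). Cd38, another NAD hydrolase, did not pass the limits at 0.44. Aox1 (-1.98) and Sarm1 (-0.75) were also called lower, Sarm1 at only 4.04 against 2.39 CPM and past the limits in 1 of the 6 fits that left out a heart, the fit without young animal 15.

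Among 17 tested regulators of sirtuins, 0 were higher and 1 was lower, beside 13.2% and 19.0% of all genes. The lower gene was Ppargc1a. Without young animal 15, 2 were higher and 3 lower, beside 26.9% and 24.2% of all genes. Without aged animal 3, 1 was higher and 3 were lower, in a fit that called 3115 of all genes over both directions. Ppargc1a encodes PGC-1α, the coactivator of mitochondrial biogenesis, which drives Sirt3 transcription together with the estrogen-related receptor and is itself a substrate of SIRT1. Its reads numbered 1192, 1626 and 378 in young animals 3, 13 and 15 and 5, 114 and 51 in aged animals 3, 4 and 7. This is a log2 fold change of -4.89 (SE 1.20, adjusted p = 0.0916), and every aged heart was below every young heart. Esrra, the receptor partner whose half-site is printed above for Sirt5, did not pass the limits (log2 fold change -0.68, SE 0.381). Ccar2, an inhibitor of SIRT1, was at 0.13 (SE 0.153).

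Substrates of the sirtuins were counted by compartment, and the difference between these lists was not tested. Of 27 tested genes whose products are known substrates of the mitochondrial sirtuins, 0 were higher and 23 lower past the limits. Of all genes, 13.2% were higher and 19.0% lower. The median log2 fold change of these substrates was -2.05. In 22 of them every aged heart was below every young heart, beside 20.6% of all genes. Acss1, the mitochondrial acetyl-CoA synthetase, averaged 597 ± 495 CPM in young and 17.4 ± 7.89 CPM in aged donor hearts (SD, n = 3 each, log2 fold change -5.10). The citrate cycle enzyme Idh2 was at -2.88, and Slc25a4, the adenine nucleotide carrier of the inner membrane, at -2.85. Sod2, the superoxide dismutase of the matrix, and Glud1, glutamate dehydrogenase, did not pass the limits, with log2 fold changes of -0.33 (SE 0.415) and -0.25 (SE 0.231). Of 34 tested substrates of the nuclear and cytosolic sirtuins, 6 were higher and 6 lower, with a median of 0.29. In 15 of them every aged heart was above every young heart and in 4 below, beside 21.0% and 20.6% of all genes. Hif1a, the oxygen-regulated transcription factor (98.8 ± 23.6 against 285 ± 95.2 CPM, log2 fold change 1.53) and the autophagy gene Atg7 (1.47) were among those higher. Ppara, the receptor that drives fatty acid oxidation genes (-2.85), Acss2, the nuclear and cytosolic acetyl-CoA synthetase (96.1 ± 32.6 against 33.8 ± 3.20 CPM, log2 fold change -1.51), and Foxo4 (-0.88) were lower, as was Ppargc1a, which is on this list too. The call of Foxo4 was lost without young animal 3 (-0.81), young animal 13 (-0.65), aged animal 3 (-0.66) or aged animal 4 (-0.87).

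The counts of these lists depended on the hearts, the covariate, the scaling and the test. With library totals alone, which moved the median gene to 0.46, 16 nuclear and cytosolic substrates were higher and 3 lower. That fit called 4588 of all 13784 genes over both directions, against 4436 with TMM. Its share in each direction is not given, so these counts cannot be set against a background. Of the regulators 4 were then higher, and of the other NAD consumers 4 were higher and 1 lower. The mitochondrial substrates then had 22 lower. limma-voom with quality weights called 10 nuclear and cytosolic substrates higher and 8 lower, beside 7504 of all genes over both directions. With the cardiomyocyte covariate, 0 of the 27 mitochondrial substrates were called in either direction, and 1 of the 34 nuclear and cytosolic substrates was called higher and 2 lower. Without young animal 15 the counts were 0 higher and 23 lower for the mitochondrial and 11 higher and 8 lower for the nuclear and cytosolic substrates, of which 3 and 2 were higher without young animal 3 and without young animal 13. Of all genes, 26.9% were higher and 24.2% lower without young animal 15. Over both directions, 2432 and 2495 of all genes were called without young animal 3 and without young animal 13. The oxidative phosphorylation pathway of KEGG, as the table assigns it, had 78 of 105 tested genes lower and 4 higher with a median of -1.69, and the lower count of this pathway, over fits without a single heart, was 43 at the lowest, when young animal 13 was left out, and 84 at the highest, when young animal 15 was. The citrate cycle had 24 of 28 lower and 1 higher with a median of -1.95. Of the 25 tested genes that KEGG places with the sirtuins in nicotinate and nicotinamide metabolism, 10 were lower and 4 higher. Of all genes, 19.0% were lower and 13.2% higher. The median of these 25 genes was -0.27. Among them the lower count was 6 without young animal 13, and the higher count was 1 without young animal 3 and 2 without young animal 13 or aged animal 3. The log2 fold changes of Sirt3 (-1.78) and Sirt5 (-1.76) were thus close to the medians of the oxidative phosphorylation and citrate cycle lists, and whether the sirtuins differed from those lists was not tested.

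**Figure D5:**
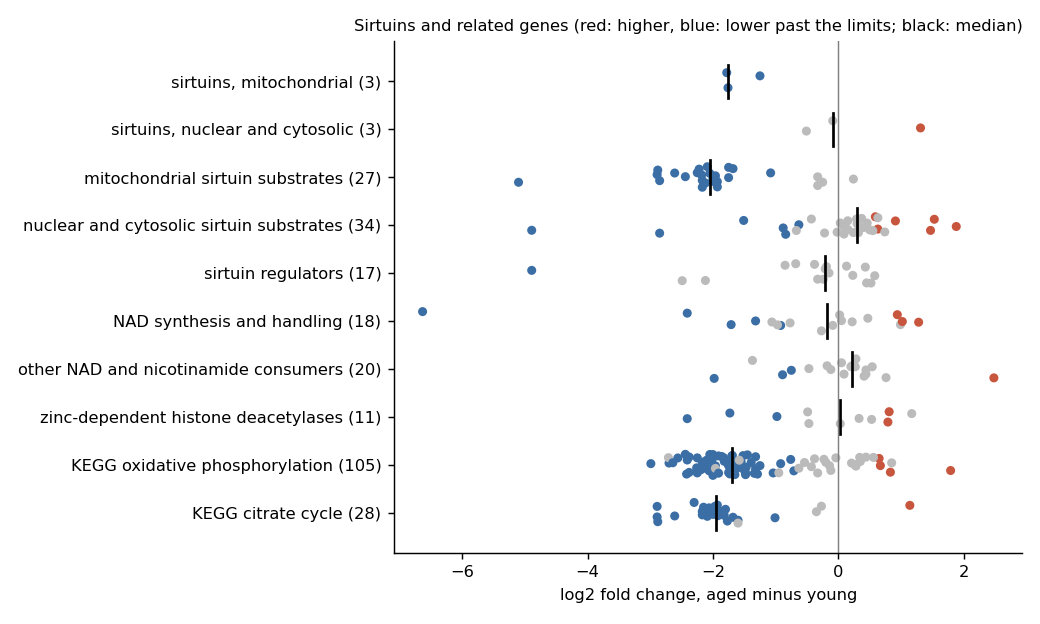
Log2 fold change, aged minus young donor hearts (x axis), of every tested gene of the sirtuins, of the related lists and of the KEGG pathways (rows, with the number of genes tested). Each point is a gene, red where it was higher and blue where it was lower past the limits, and the black bar is the median. The mitochondrial sirtuin substrates, with a median of -2.05, lay mostly left of 0, whereas the nuclear and cytosolic substrates spread over both sides of 0 with a median of 0.29.

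The zinc-dependent histone deacetylases remove acetyl groups without NAD and served as the other deacetylase family of the same hearts. All 11 were tested, and 2 were higher and 3 lower, beside 13.2% and 19.0% of all genes. The median log2 fold change was 0.03. Hdac11, the sole member of its class, was at 9.88 ± 5.46 CPM in young and 1.85 ± 1.14 CPM in aged donor hearts (SD, n = 3 each, log2 fold change -2.41). Hdac9 (-1.73) and Hdac5 (-0.98) were also lower. Hdac4 (0.81) and Hdac1 (0.79) were higher, with overlapping groups for Hdac1, and both lost their call without young animal 3 (0.63 and 0.65), young animal 13 (0.81 and 0.63) or aged animal 3 (0.66 and 0.67), Hdac1 also without aged animal 4 (0.80).

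The genes whose levels followed each sirtuin most closely over the 6 hearts were found by Pearson correlation of log2 CPM among 12958 genes. The 6 hearts fall into donor groups and share their depth and cell type differences, so these values are a description. The closest to Sirt3 were Snx22 (r = 0.9994) and Fbxl22 (r = 0.9989), to Sirt4 Tmx4 (r = 0.9998) and Lrig1 (r = 0.9990), and to Sirt5 Hccs (r = 0.9996) and Inha (r = 0.9995). Sirt7 was followed most closely by Tbc1d2 (r = 0.9977) and Phf23 (r = 0.9974), and Sirt2 by G4 (r = 0.9988). Sirt6 had the loosest followers, Fdxr (r = 0.9866) and Gpatch1 (r = 0.9677). Hccs encodes the mitochondrial enzyme that attaches haem to cytochrome c, and it was at 86.4 CPM in young and 24.7 CPM in aged donor hearts, with a log2 fold change of -1.81 beside the -1.76 of Sirt5. A high r did not mean a difference of like size. Inha was at -5.11, and Snx22 and Fbxl22 were at -3.78 and -3.43 beside the -1.78 of Sirt3. Nearer to their sirtuins were Tmx4 at -1.08 (Sirt4 -1.25) and Tbc1d2 at 1.22 (Sirt7 1.31). Between the sirtuins themselves, r was 0.98 for Sirt3 and Sirt5, 0.94 for Sirt3 and Sirt4, and -0.97 for Sirt5 and Sirt7. The cytosolic Sirt2 was about as close to Sirt3 (r = 0.98) and Sirt5 (r = 0.97) as these were to each other. With Sirt4 its r was 0.87, below the 0.94 of Sirt4 with Sirt3 and with Sirt5.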

How the data were processed

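Polyadenylated RNA from 6 hearts was sequenced on an Illumina platform. The authors deposited raw read counts per gene and FPKM values in 1 table. The deposited FPKM is the count divided by the listed gene length and the library total, which held within a relative tolerance of 0.001 for all but 1 of 133500 values. The submitters' processing notes name HISAT2 2.0.5, StringTie 1.3.3b, featureCounts 1.5.0-p3, DESeq2 1.16.1, GATK 3.7 and Rnor_6.0. The use of strand is not given in the sources used here, and no listed gene overlaps a sirtuin. The listed lengths were used as deposited by the authors.

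The main test was edgeR 4.0.16 under R 4.3.3 (filterByExpr, TMM, glmQLFit and glmQLFTest, no covariates). DESeq2 1.42.0 and limma 3.58.1 were alternatives, and permutations used scipy 1.17.1 under Python 3.11.15. Log2 CPM used a prior count of 2. Standard errors are the log2 fold change over the square root of F. Steps were tested on simulated data.

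The members and lists were chosen with earlier results of these data known. Named were all sirtuins, up to 4 members a list and direction past the limits with the largest log2 fold change and a mean of at least 1 CPM, and the 2 genes most alike to each sirtuin. Some genes that this rule would name are not reported here. Nampt, Cd38, Esrra, Ccar2, Sod2 and Glud1, which fall outside this rule, were named after their values were seen. The counts of young animals 3 and 13, the closest hearts of a group, still differed beyond counting error (chi-square over its degrees of freedom 9.81), so all 6 were kept. Hearts are separate animals. Alternatives were other scalings, filters and tests, the adjusted p, the cardiomyocyte covariate and leaving out each heart in turn. Promoters were taken from RefSeq (GRCr8), and no coordinate was moved between builds.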

Additional observations from a re-analysis of the deposited data

How the results depend on the processing

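With an adjusted p under 0.05 in place of the unadjusted p, 0 sirtuins were called higher and 0 lower, and 0 of all genes, against 1, 3 and 4436. With the cardiomyocyte marker mean as covariate, 0 sirtuins were lower, 764 of all genes were past the limits, and the mean log2 fold change of the mitochondrial minus that of the nuclear and cytosolic sirtuins was -1.01 against -1.83. limma-voom with quality weights called 7504 genes, among them Sirt2 at -0.70. Over all genes, leaving out young animal 3, 13 or 15 gave 2432, 2495 and 7214 calls, the lowest and highest without a single heart being the first and last of these. The cause of these shifts was not tested. The sign of Sirt6 differed at 0.38 with library totals alone and 0.21 with totals without the mitochondrial genome. The median gene was at 0.46 and 0.30 under these scalings. Sirt6 was at -0.08 relative to it in both, a value that a change of scale hardly moves. Other reversed signs occurred for Sirt6 at 0.02 with the covariate and between -0.13 and 0.01 without single hearts, for AABR07044925.1 at -0.14 in limma-voom and between -0.10 and 0.24 without single hearts, and for Nmrk2 at 0.23 with the covariate. Without single hearts, Sirt3 ran from -2.14 to -1.47, Sirt4 from -1.42 to -1.04, Sirt5 from -2.08 to -1.48 and Sirt7 from 1.16 to 1.63, past the limits in all 6 fits. Of 15 alternatives, Sirt3, Sirt4 and Sirt5 were past the limits in 13 each, Sirt7 in 14, Sirt2 in 2 and Sirt6 in 0. No paired analysis was possible because the groups share only animal number 3, which names different rats. With 3 hearts a group and wide spread among the young hearts, a sirtuin that missed the limits is not shown to be unchanged.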
